A study of Arabidopsis thaliana with 6 samples.

Results

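The genes described here encode small heat shock proteins of the HSP20 class. The group was a given list of 8 loci, and all 8 could be found on the arrays, among 14208 loci that could be named in all. Each locus is represented by its brightest probe set, the group of short probes that reports on a transcript. Each had only 1 among the probe sets that could be named. Probe sets that the platform assigns to several genes were not named from it. Of the 8, 5 encode cytosolic proteins: HSP17.6B-CI (AT2G29500), HSP17.4-CI (AT3G46230) and HSP17.6C-CI (AT1G53540) of class I, HSP17.6A (AT5G12030) of class II and HSP17.4-CIII (AT1G54050) of class III. The other 3 encode proteins of organelles: HSP22.0 (AT4G10250) of the endoplasmic reticulum, HSP23.5 (AT5G51440) of the mitochondrion and HSP15.7 (AT5G37670) of the peroxisome. A platform table names 6 of these probe sets. AT3G46230 and AT5G12030 are named only by Additional file 1 of the study, of which only the rows with the strongest changes were used, so these genes could be named because they changed.

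Pollen tubes of the agp6 agp11 double null mutant were compared with those of wild type plants, both of the ecotype Nossen. The mutant is homozygous for Ds transposon insertions in 2 arabinogalactan protein genes, AGP6 and AGP11, and is a single line made by crossing 2 insertion lines. Newly opened flowers gave the pollen, which was left to germinate in vitro in darkness for 8 h, and tubes were kept on a mesh that let ungerminated grains pass. Tubes were incubated at the temperature at which the plants had been grown, and no heat treatment is described. According to the study, mutant pollen germinated less and its tubes were shorter. It also describes partly aborted pollen grains and early germination inside the anthers of the mutant. Each of the 3 preparations per genotype pooled many flowers and was hybridised to 1 Affymetrix ATH1 array, which gives signals normalized between arrays on a linear scale.

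Small heat shock proteins bind unfolding proteins without using ATP and keep them from aggregating, until HSP70 and HSP101 chaperones refold them. Plants have an unusually large family, with separate classes for the cytosol and for most organelles, all encoded in the nucleus. The genes are best known for their rapid induction by heat through heat shock transcription factors, and several are also expressed without heat during the development of pollen and seeds.

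The median signal was between 23.3 and 24.5 on the 6 arrays. AGP6 (AT5G14380) averaged 25.1 ± 8.69 in agp6 agp11 and 12196 ± 2258 in wild type (SD, n = 3 arrays each), and AGP11 (AT3G01700) averaged 35.9 ± 4.07 in agp6 agp11 and 8356 ± 2400 in wild type. Of 8 listed sperm cell markers 5 were named, and all 5 were detected. Their summed signal was 15969 to 22091 in agp6 agp11 and 8932 to 11646 in wild type. Most of it came from 1 probe set, that of DAZ3 (AT4G35700), with 11155 to 14563 in agp6 agp11 and 5641 to 7953 in wild type. Of the 5 markers, 1 was called higher by the limma test described below, or all 5 with arrays paired by replicate number. Over all probe sets the shares called higher were 2.01% and, with the pairing, 5.03%. As 4 of these 5 markers are named only by Additional file 1, they too could be named because they changed. For the 6 named of 11 markers of the pollen vegetative cell it was 30738 to 35238 in agp6 agp11 and 23859 to 30790 in wild type. A single probe set, AT5G45880, made up 17472 to 18149 of it in agp6 agp11 and 16009 to 16948 in wild type. Of these 6 markers 1, AT3G28790, was called higher, with and without the pairing (log2 difference 1.41; adjusted p = 0.0312 from limma). None of the 2 named of 17 markers of photosynthetic tissue and of the 3 named of 12 markers of the tapetum, the layer that nourishes pollen, was detected in either genotype. The part of the sperm cell markers in the results below was not tested. In such bulk preparations fewer cells of a type and less RNA per cell cannot be told apart.

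The cytosolic small heat shock protein genes were bright in wild type pollen tubes, and all 5 were lower on every agp6 agp11 array than on any wild type array. That the arrays do not overlap, with agp6 agp11 lower, held for 5 of the 8 genes and for 8.71% of all probe sets. With agp6 agp11 higher, 11.3% of all probe sets were apart. Both shares also count probe sets that were not detected. The study had already reported HSP17.6B-CI, HSP17.4-CI, HSP17.6A and HSP17.6C-CI as down-regulated on these same arrays. It also found HSP17.6C-CI lower by quantitative PCR on the same RNA preparations. It listed all of these genes as lower, too, in published data of cultured cells treated with Yariv reagent, which binds arabinogalactan proteins. The list was chosen with earlier results of these data known, so counts over it, here and below, are not independent of them. HSP17.6B-CI had signals of 97.9, 360 and 247 in agp6 agp11 (replicates 1, 2 and 3, here and below), against 1918, 2234 and 1519 in wild type. The mutant mean of 235 ± 131 was 12.4% of the wild type mean of 1890 ± 358 (SD, n = 3 arrays each). The log2 difference was -3.18 (standard error 0.44), a 9.09-fold decrease on the log2 scale, with an adjusted p of 0.00334 from limma. Every p-value was adjusted across the whole table of 22746 probe sets by the Benjamini-Hochberg method, and 0.05 was the threshold. HSP17.6B-CI passed this test also without any 1 of the 6 arrays, with adjusted p-values of 0.00338 to 0.0264.

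HSP17.4-CI, another class I gene, had signals of 586, 1196 and 1222 in agp6 agp11, against 2694, 2728 and 2421 in wild type. Its mutant mean was 38.3% of the wild type mean, with a log2 difference of -1.46 (standard error 0.32; adjusted p = 0.0372). The wild type arrays were close together, with the highest 1.13 times the lowest, whereas the mutant arrays spanned 2.09-fold. The call of HSP17.4-CI was lost without wild type replicate 1, 2 or 3 (adjusted p = 0.168, 0.127 and 0.0571 from limma) and without agp6 agp11 replicate 1 or 2 (0.121 and 0.0549). It was kept only without agp6 agp11 replicate 3 (0.0331).

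**Figure D1:**
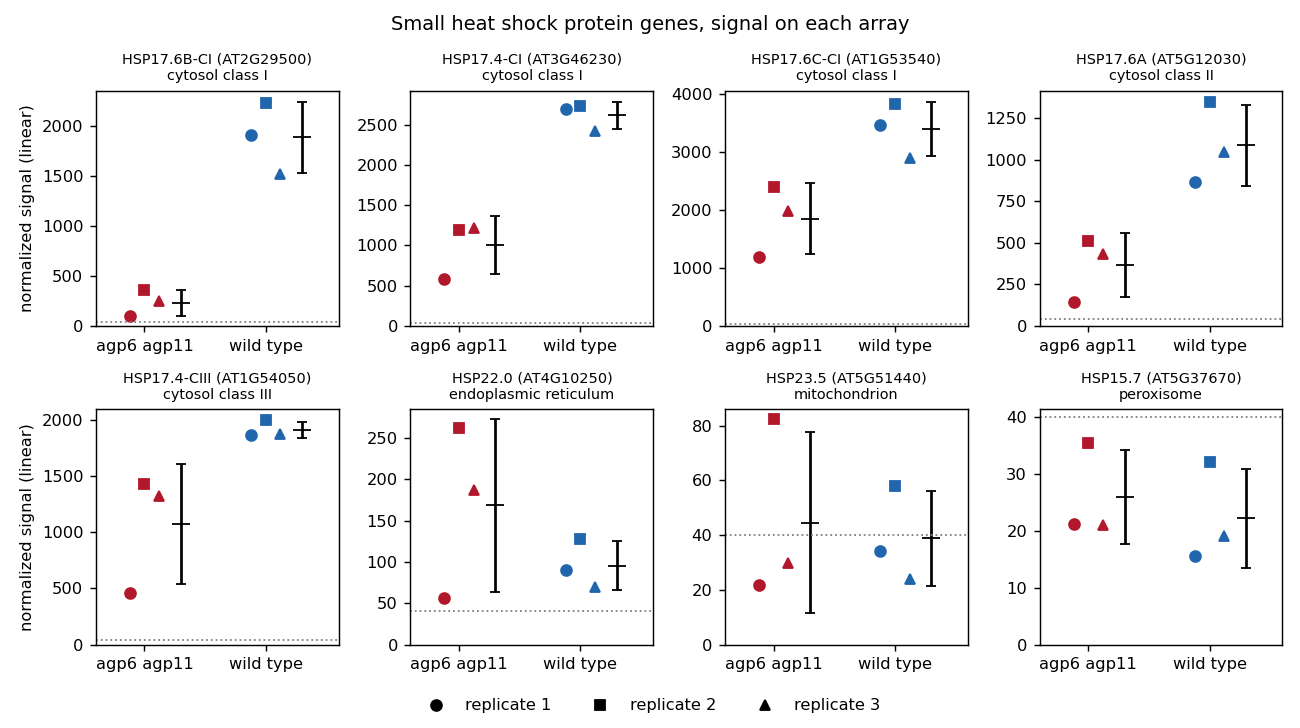
Normalized signal (linear axis from 0, a different scale in each panel) of the 8 small heat shock protein genes, agp6 agp11 on the left and wild type on the right. Points are single arrays, with a symbol for each replicate number, bars are the mean ± SD of 3 arrays, and the dotted line is the signal of 40 used for detection; the arrays of the genotypes do not overlap for the 5 cytosolic genes and overlap for the 3 organelle genes.

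The class II gene HSP17.6A had signals of 146, 513 and 435 in agp6 agp11, against 864, 1349 and 1048 in wild type. Class II proteins form oligomers separate from those of class I. The mutant mean was 33.6% of the wild type mean and the log2 difference was -1.74 (standard error 0.45; adjusted p = 0.0753 from limma). The lowest wild type array, replicate 1, was still above the highest mutant array, replicate 2. The test was not passed in spite of a larger difference than that of HSP17.4-CI, and the spread between arrays of HSP17.6A was also larger, with the highest array 3.51 times the lowest in agp6 agp11 and 1.56 times in wild type.

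HSP17.6C-CI, the brightest of the 8 probe sets, and the class III gene HSP17.4-CIII had the smallest differences among the cytosolic genes. HSP17.6C-CI had signals of 1180, 2386 and 1988 in agp6 agp11, against 3459, 3820 and 2892 in wild type, so that its mutant mean was 54.6% of the wild type mean. HSP17.4-CIII had signals of 457, 1435 and 1320 in agp6 agp11, against 1869, 1998 and 1878 in wild type, or 55.9%. For HSP17.4-CIII a single array, agp6 agp11 replicate 1, was far below the other 5. Neither gene passed the test. The log2 difference of HSP17.6C-CI was -0.92 (95% interval -1.61 to -0.24; adjusted p = 0.182 from limma), and that of HSP17.4-CIII was -1.01 (-1.93 to -0.08; adjusted p = 0.309). Since probes differ in how strongly they bind, signals of different genes do not give the order of their transcript levels.

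Arrays were paired by the replicate numbers in the labels, which do not say what a number shares. Over all probe sets, deviations of same-numbered arrays correlated between genotypes (r = 0.239, 0.347 and 0.379). For the cytosolic genes, log2 of replicate 1 minus the mean of the other arrays was -1.69 to -0.88 in agp6 agp11. In wild type it was -0.46 for HSP17.6A and -0.05 to 0.07 for the rest. Adding the replicate number to the model as a block (replicate block) changed 2 calls of the 8. HSP17.6A (adjusted p = 0.00188 with the replicate block) and HSP17.6C-CI (0.0227) then passed as lower, and HSP17.4-CIII came to 0.0586. Of the 5 cytosolic genes, 2 were thus called lower without the block and 4 with it, and none was called higher. Over all probe sets, 1.67% were called lower and 2.01% higher without the block, and 3.31% and 5.03% with it. Among the 7195 probe sets detected in either genotype, 3.97% were called lower and 5.27% higher without the block. Detection in a genotype was set at a signal over 40 in 2 or more of its 3 arrays. The study's methods required the fold change to exceed 1.3 at its 90% lower bound. Here the bound was calculated from the spread between arrays with a normal quantile, and 4 of the 8 genes were lower. The bounds were 5.02 for HSP17.6B-CI, 1.93 for HSP17.4-CI, 1.85 for HSP17.6A and 1.34 for HSP17.6C-CI. A normal quantile makes no allowance for spreads estimated from 3 arrays, so these bounds are too high for 90%. HSP17.6C-CI was only just above 1.3 and might not pass a stricter bound, which was not calculated. The bound of HSP17.4-CIII was 1.21. Of all probe sets 2.77% were lower by this criterion and 3.69% higher.

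None of the 3 organelle genes passed the test in either direction, with or without the replicate block. HSP22.0 was the only one of them detected. Its signals were 55.7, 263 and 187 in agp6 agp11, against 89.8, 127 and 69.5 in wild type. The agp6 agp11 arrays lay on both sides of the wild type arrays, with replicate 1 below all of them and replicates 2 and 3 above all of them. The log2 difference was 0.59, with a 95% interval of -0.55 to 1.74 (adjusted p = 0.690 from limma). HSP23.5 had signals of 21.7, 82.4 and 29.7 in agp6 agp11, against 34.3, 58.0 and 24.0 in wild type, and exceeded 40 only in replicate 2 of each genotype. HSP15.7 had 21.1, 35.4 and 21.1 in agp6 agp11, against 15.5, 32.1 and 19.1 in wild type, and exceeded 40 on no array. The log2 differences of HSP23.5 and HSP15.7 were 0.05 (95% interval -1.01 to 1.11) and 0.24 (-0.42 to 0.91). No organelle gene (0) had an unadjusted p under 0.05 in limma. All 5 cytosolic genes did, each as lower, beside 5.79% of all probe sets as lower and 13.8% in either direction. These shares include undetected probe sets. In a fit of only the 6641 probe sets with a mean signal over 40, 1509 had an unadjusted p under 0.05 in either direction. Of the 5 cytosolic genes, 2 could be named only because they changed.

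The median log2 difference was -1.46 over the 5 cytosolic genes and 0.24 over the 3 organelle genes, beside 0.03 over all probe sets. The cytosolic differences ran from -3.18 to -0.92 and the organelle differences from 0.05 to 0.59, so the classes did not overlap. With 2 of the 3 organelle genes not detected, the organelle side of this comparison rests on HSP22.0. The 95% interval of HSP22.0 lay above those of HSP17.6B-CI (-4.17 to -2.20), HSP17.4-CI (-2.18 to -0.74) and HSP17.6A (-2.75 to -0.73), and overlapped those of HSP17.6C-CI and HSP17.4-CIII. The difference between the classes was not tested.

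**Figure D2:**
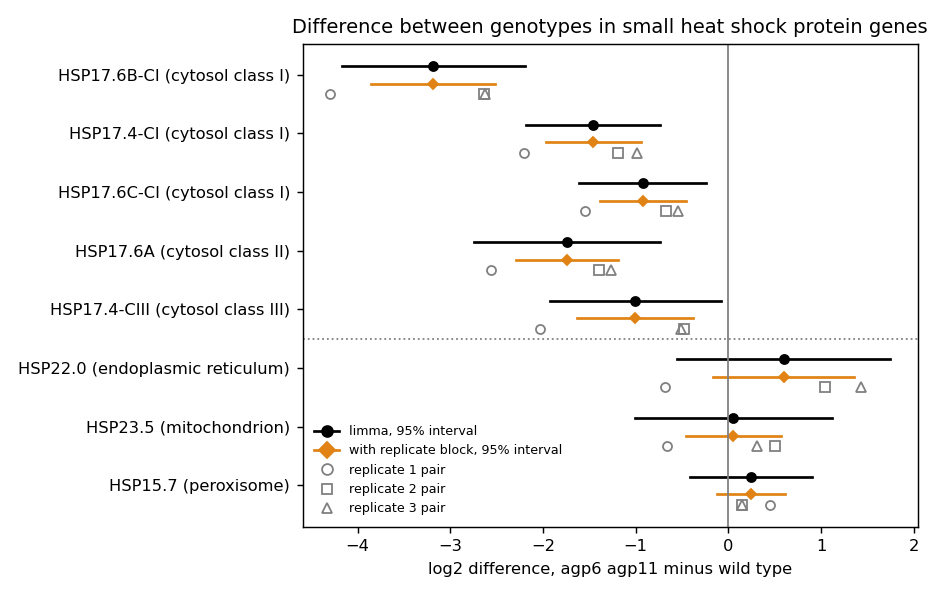
Log2 difference in signal, agp6 agp11 minus wild type, for each small heat shock protein gene, with cytosolic genes above the dotted line and organelle genes below it. Black circles and lines are the limma estimate and its 95% interval, orange diamonds and lines the same with the replicate block, and open grey symbols the difference within each replicate number; all cytosolic estimates are below 0, from -3.18 to -0.92, and the replicate 1 difference is the lowest for every gene but HSP15.7.

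The genes varied together between preparations of 1 genotype. Replicate 2 was the highest wild type array for all 8 genes and the highest mutant array for 7 of 8, all but HSP17.4-CI. The 8 include HSP23.5 and HSP15.7, which were not detected. For the 5 cytosolic genes alone these counts were 5 and 4. Among the detected probe sets, replicate 2 was the highest wild type array for 39.3% and the highest mutant array for 37.4%. Replicate 1 was the lowest mutant array for 7 of the 8 genes, all but HSP15.7, and for 16.5% of the detected probe sets. The 7 include all 5 cytosolic genes. For the cytosolic genes its log2 signal minus the mean of the other two mutant arrays was -1.69 to -0.88, while the median of this value over detected probe sets was 0.15. The replicate 1 value of HSP22.0 lay likewise below the other two mutant arrays, with a log2 difference of -1.99. In wild type the highest array was 1.07 to 1.56 times the lowest for the cytosolic genes, and in agp6 agp11 it was 2.02 to 3.67 times.

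The difference between genotypes was therefore widest in replicate 1 for all 5 cytosolic genes. Within replicates 1, 2 and 3 the log2 difference of HSP17.6B-CI was -4.29, -2.64 and -2.62, and that of HSP17.4-CI was -2.20, -1.19 and -0.99. HSP17.6A had -2.56, -1.39 and -1.27. HSP17.6C-CI, with -1.55, -0.68 and -0.54, and HSP17.4-CIII, with -2.03, -0.48 and -0.51, also showed a decrease in every replicate. HSP22.0 changed its sign between replicates, with -0.69, 1.04 and 1.43. Without agp6 agp11 replicate 1 the log2 difference was -2.65 for HSP17.6B-CI, -1.11 for HSP17.4-CI and -1.18 for HSP17.6A. HSP17.6C-CI and HSP17.4-CIII were then at -0.63 and -0.48 and HSP22.0 at 1.26, and of the 8 genes only HSP17.6B-CI passed (adjusted p = 0.00868 from limma). Beside these values, the summed signal of the sperm cell markers was highest in replicate 1 of agp6 agp11. DAZ3 (AT4G35700), the largest part of this sum, was itself highest in replicate 3, with 14563 against 14517 in replicate 1. The other named markers, MGH3, HAP2, DAZ1 and DAW1, were highest in replicate 1.

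Of 15 further loci listed for HSP20-domain proteins 8 could be named, and 1 of these fell, while none rose, beside 1.67% lower and 2.01% higher of all probe sets. The other class I gene among them, AT1G59860, had signals of 96.2, 304 and 336 in agp6 agp11, against 667, 781 and 591 in wild type. The mutant arrays of AT1G59860 were all lower, with replicate 1 again the lowest, but the log2 difference of -1.66 did not pass without the replicate block (adjusted p = 0.0863, and 0.00979 with it, from limma). Its type of probe set name (_s_at) means that the probes may match several genes, and the same holds for AT2G03020. The locus that fell, AT2G03020 (adjusted p = 0.0184), was not detected in either genotype, with 17.2 ± 2.93 in agp6 agp11 and 33.1 ± 3.48 in wild type. This call did not hold when wild type replicate 1, wild type replicate 2 or agp6 agp11 replicate 1 was left out (adjusted p = 0.112, 0.0651 and 0.0911). HSP26.5 (AT1G52560) was detected, with 56.5 ± 19.1 in agp6 agp11 and 63.8 ± 10.3 in wild type, a log2 difference of -0.23 (adjusted p = 0.801). The other 5 were not detected and did not pass. AT1G59860 and AT2G03020 are named only by Additional file 1, and the median over the 8 was -0.22. The study had reported both of these loci as down-regulated on the same arrays.

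Small heat shock proteins hand their clients to HSP70 and HSP101, and of 66 listed chaperones, co-chaperones and heat shock factors 22 could be named. Of these, 5 fell, 2 rose and 15 did not pass, and with the replicate block 11 fell and 3 rose. Of all probe sets 1.67% fell and 2.01% rose, and 3.31% and 5.03% with the replicate block. The median log2 difference of the 22 was -0.62. Since 8 of the 22 are named only by Additional file 1, the count is not independent of the study's own ordering by change. With names from the platform table alone, 2 of 14 fell and 2 rose.

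The co-chaperone gene ROF2 (AT5G48570), for a heat-inducible peptidyl-prolyl isomerase, had the strongest fall of the list. Its signals were 97.3, 320 and 208 in agp6 agp11, against 1418, 1611 and 1209 in wild type, a log2 difference of -2.91 (adjusted p = 0.00343 from limma). FES1A (AT3G09350), a nucleotide exchange factor of HSP70, had 196, 350 and 546 in agp6 agp11, against 1245, 1073 and 928 in wild type (log2 difference -1.68; adjusted p = 0.0361). The mutant arrays of both genes were below all wild type arrays. HSP70-15 (AT1G79920) fell to 78.0 ± 15.9 in agp6 agp11, against 176 ± 12.8 in wild type (adjusted p = 0.0229), on a probe set of the _s_at type that may also match other genes. J20 (AT4G13830), for a J-domain protein of the chloroplast, fell with signals below 40 on all arrays (adjusted p = 0.0172). FES1A kept its call only without agp6 agp11 replicate 3 (0.00869) and lost it without any other array (adjusted p = 0.0537 to 0.181). HSP70-15 and J20 both lost theirs without wild type replicate 1 (0.121 and 0.0745), wild type replicate 2 (0.0863 and 0.0535) or agp6 agp11 replicate 1 (0.108 and 0.103), and J20 also without wild type replicate 3 (0.0559).

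Not all chaperone genes were lower. ATJ1 (AT1G28210), a J-domain protein of the mitochondrion, had 133, 143 and 114 in agp6 agp11, against 39.0, 49.8 and 39.4 in wild type, a log2 difference of 1.61 (adjusted p = 0.00279 from limma). The J-domain gene AT1G72070 rose to 94.0 ± 8.25 in agp6 agp11, against 51.5 ± 4.75 in wild type (adjusted p = 0.0432), a call that was lost without any 1 of the 6 arrays (0.0765 to 0.246). HSA32 (AT4G21320), needed in Arabidopsis for lasting heat tolerance, was at 89.8 ± 39.3 in agp6 agp11 and 89.5 ± 22.3 in wild type. Its log2 difference was -0.06 (adjusted p = 0.967).

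With the replicate block 6 further HSP70 and co-chaperone genes passed as lower, and the 1 named gene of the organelle list, CRT1B (AT1G09210), did not pass. The cytosolic HSP70 genes HSC70-1 (AT5G02500) and HSP70-2 (AT5G02490) had log2 differences of -1.01 and -0.75 (adjusted p = 0.107 and 0.447 from limma, and 0.00492 and 0.0279 with the replicate block). HOP3 (AT4G12400), which links HSP70 to HSP90, had -1.18 (0.242, and 0.0389 with the replicate block). The J-domain gene ATJ2 (AT5G22060) had 241 ± 44.4 in agp6 agp11 and 477 ± 27.4 in wild type (0.0625, and 0.00716 with the replicate block). AT1G71000, also of the J-domain class, had a log2 difference of -1.24 (0.0923, and 0.0122 with the replicate block). ROF1 (AT3G25230), related to ROF2, had -0.83 (0.140, and 0.0179 with the replicate block).

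Heat shock factors are a family of transcription factors, some of which switch on small heat shock protein genes. Of 21 listed 3 could be named, all through Additional file 1. HSFA4C (AT5G45710) had signals of 76.5, 74.4 and 56.5 in agp6 agp11, against 243, 237 and 164 in wild type. The log2 difference was -1.63 (adjusted p = 0.00636 from limma), and the call was lost without wild type replicate 1 (0.0528). HSFA1A (AT4G17750), a factor that acts at the start of the heat response, had 119, 79.2 and 98.8 in agp6 agp11, against 58.1, 51.4 and 70.6 in wild type. The log2 difference of HSFA1A was 0.71 (adjusted p = 0.177, and 0.0349 with the replicate block). HSFB2B (AT4G11660) was not detected and did not pass. The lowest mutant array was replicate 3 for HSFA4C and replicate 2 for HSFA1A.

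**Figure D3:**
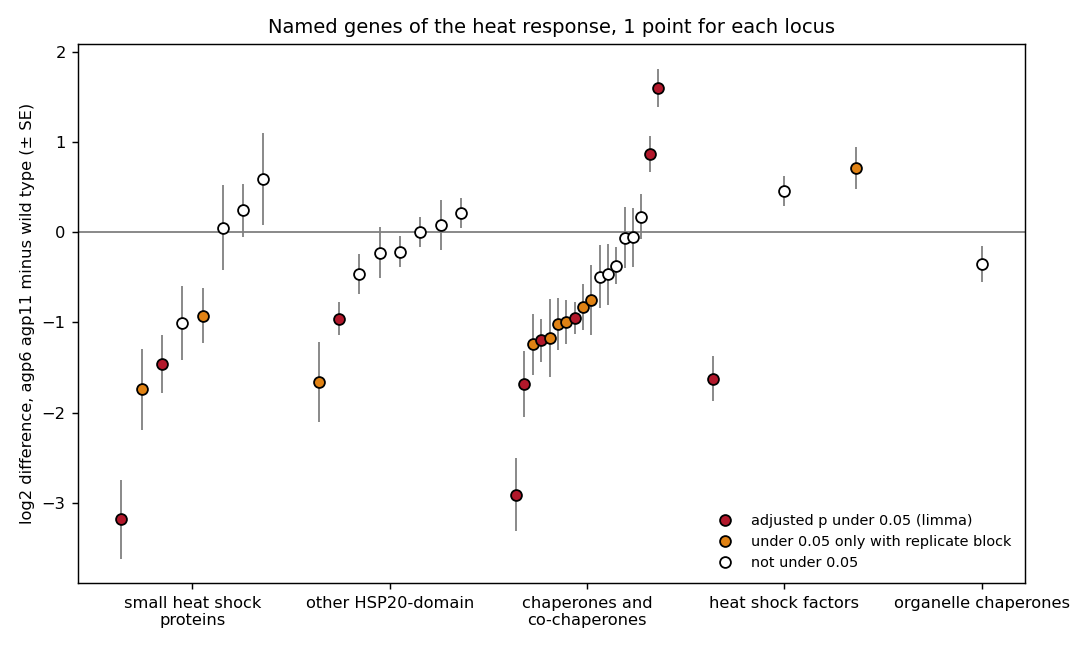
Log2 difference in signal, agp6 agp11 minus wild type (± standard error), for every named locus of the lists of the heat response, sorted within each list. Red points passed the limma test, orange points passed only with the replicate block and white points did not pass; the lowest values are those of HSP17.6B-CI (-3.18) and ROF2 (-2.91), and the highest is that of ATJ1 (1.61).

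The gene with the profile most like that of HSP17.6B-CI over the 6 arrays was ROF2. Likeness was measured as the root mean square difference of log2 signals, each centred on its own mean over the arrays, among 4669 detected probe sets with a named locus outside the 8 genes. This distance was 0.159 for ROF2. The following were AT4G11200 (0.524), AT1G12490 (0.543), AT1G76730 (0.567) and AT3G44700 (0.583). The genotype difference makes up most of this measure, and the 4 loci after ROF2 were not detected in agp6 agp11. For ROF2, as for HSP17.6B-CI, replicate 1 was the lowest and replicate 2 the highest of the mutant arrays, and the 4 undetected loci were below 40 on every mutant array. From deviations within each genotype alone, HOP3 (0.0616) and ROF2 (0.0819) were the nearest, and 1 of the 5 loci was the same. After AT2G16590 (0.145) came the chloroplast genome loci ARTHCP055 (0.162) and ARTHCP027 (0.169). Their log2 differences were 0.60 and 0.67 (adjusted p = 0.545 and 0.529 from limma), so this replicate pattern was not particular to genes lower in agp6 agp11. Of the other small heat shock protein genes HSP17.6A was the nearest to HSP17.6B-CI, with a distance of 0.749, followed by HSP17.4-CI (0.905), HSP17.4-CIII (1.10) and HSP17.6C-CI (1.16). HSP22.0 was the farthest, with 1.90.

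**Figure D4:**
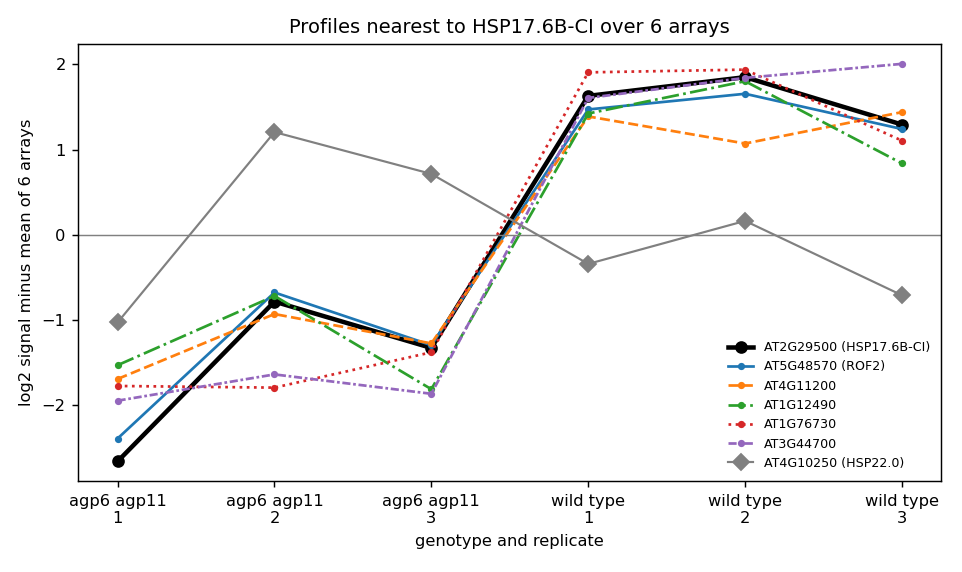
Log2 signal on each array minus the mean of the 6 arrays, for HSP17.6B-CI (black), the 5 loci nearest to it and HSP22.0 (grey diamonds), with the 3 agp6 agp11 arrays on the left and the 3 wild type arrays on the right. ROF2 follows HSP17.6B-CI on every array, with a root mean square distance of 0.159, and HSP22.0, at 1.90, does not.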

How the data were processed

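RNA of 6 pollen tube preparations, 3 of agp6 agp11 and 3 of wild type, was hybridised to ATH1 arrays. The deposited intensities are linear model-based signals that the authors computed from perfect match probes in dChip, after invariant set normalization of the arrays to a baseline array. Affymetrix Expression Console served them for quality control. Probe-level files, detection calls and sequences were not used here.

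Names came from a platform table, matched to RefSeq locus tags (1 gene for 13513 of 22746 probe sets) and, for 842 more, from Additional file 1. Where both sources name a probe set and disagree (26 cases), Additional file 1 was followed. The 8 genes and all lists were chosen with earlier results of these data known. All 8 genes were reported, with listed heat response loci that passed with or without the replicate block, the 5 loci nearest in profile to AT2G29500, and the disrupted genes.

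Signals were raised to at least 1, log2 transformed and fitted with limma 3.58.1 (R 4.3.3; eBayes with intensity trend). The fit was tested on simulated data. Deviations of same-numbered arrays from their genotype means correlated at 0.239, 0.347 and 0.379 between genotypes, each above the limit of 0.1 set for pairing, and at 0.0711 or less otherwise. The labels do not say what a number shares. Figures were drawn with Python 3.11.15. Alternatives covered scaling, offset, filter, moderation, array weights, block, single arrays, criterion and naming. The 6 arrays limit the precision of every value.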

Additional observations from a re-analysis of the deposited data

How the results depend on the processing

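Of 22746 probe sets 837 passed, and of the small heat shock protein genes 2, of the other HSP20-domain loci 1 and of the other heat response genes 7. With the replicate block these counts were 1897, 4, 2 and 14, and with array weights 2019, 5, 2 and 13. By the lower bound above 1.3, with the normal quantile, they were 1469, 4, 2 and 11. When 1 array was left out they were 372 to 871, 1 to 2, 0 to 2 and 2 to 7. With platform names alone 1 small heat shock protein gene of 6, 0 other HSP20-domain loci of 6 (0 at an unadjusted p under 0.05 in limma) and 4 other heat response genes of 14 passed. An offset of 32 left 1 small heat shock protein gene, since HSP17.4-CI came to an adjusted p of 0.0505. No other HSP20-domain locus (0) passed in limma after the filter on mean signal (1 at an unadjusted p under 0.05) or without _s_at and _x_at probe sets (0), where fewer were tested.

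With the replicate block and both arrays of replicate 1, 2 or 3 left out, an alternative chosen after seeing the data, 4, 5 and 5 small heat shock protein genes passed. Without replicate 1 these included HSP22.0 as higher (log2 difference 1.23; adjusted p = 0.0284 from limma). Only 1 residual degree of freedom remained, so these p-values rest mainly on the variance shared across probe sets. The undetected genes changed sign: HSP23.5 was at -0.0074 with array weights and at -0.51 to 0.45 without single arrays, and HSP15.7 at -0.0046 to 0.54. The 5 cytosolic genes kept their direction under every alternative run. Quantile normalization gave 409 probe sets higher and 424 lower, against 457 and 380 as deposited, and left the call of all 8 genes as it was. The cause was not tested for any of these shifts. A minimum of 30 or 60 in place of 40 gave 7 or 6 detected genes of the 8, against 6.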

Other observations

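Among deviations from the genotype means, AT2G16590, a locus outside the lists, was the third nearest to HSP17.6B-CI after HOP3 and ROF2, with a root mean square distance of 0.145 on the log2 scale. Its signals were 82.5, 290 and 214 in agp6 agp11, against 394, 507 and 434 in wild type, with replicate 1 the lowest and replicate 2 the highest array of each genotype. The log2 difference was -1.36 (adjusted p = 0.147 from limma, and 0.0103 with the replicate block). It was singled out after its values were seen.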
